A study of Mus musculus with 10 samples.

Results

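The levels of 42 genes that mark subfields of the hippocampus or the regions next to it were followed through RNA of the ventral hippocampus (vHpc). The genes were taken by symbol from a list of names that was drawn up with earlier results of these data known, with no threshold on a measured value, and make up 42 of the 24421 symbols in the deposited table. Each was assigned to 1 region: 10 to dentate granule cells, 3 to CA1, 5 to CA2, 3 to CA3, 4 to mossy cells or calcium-binding proteins, 3 to the ventral pole, 6 to the thalamus and 8 to the hippocampus as a whole or the cortex. A member had to average at least 0.5 CPM over all libraries, where CPM is reads per 1000000 reads counted on genes. Every one of the 42 did, as did 15081 of the 24421 symbols.

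The study asked how estradiol (E2) acts on the vHpc of mice that carry a human variant of BDNF, brain-derived neurotrophic factor. All mice were female C57BL/6, were ovariectomized (OVX) at about 70 to 80 days of age and recovered for 2 weeks. WT mice and Het-Met mice, which are heterozygous for a BDNF Val66Met knock-in allele, then drank E2 at 300 nM in 0.1% ethanol, about 0.7 µg per day, or 0.1% ethanol alone (vehicle) for 6 weeks. Bulk RNA-seq of 10 libraries was used here, 2 libraries for each treatment of WT mice and 3 for each treatment of Het-Met mice. Each library pooled the RNA of 2 animals, so a spread between libraries is a spread between pairs of animals.

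The hippocampus is a loop of neurons that passes from the dentate gyrus to CA3 and on to CA1, with the small field CA2 between CA3 and CA1. Granule cells fill the dentate gyrus, and mossy cells lie in the hilus beneath them. Each of these fields keeps its own set of transcription factors, channels and adhesion proteins, so the RNA of its marker genes can be read as a sign of how much of the field a piece of tissue held. The vHpc is cut by hand from tissue that borders the thalamus, the choroid plexus and the cortex, whose markers serve as signs of neighbouring tissue. In bulk RNA, fewer cells of a type and less RNA per cell cannot be told apart.

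The promoters of 5 members are shown. They include Fibcd1, the 1 member called in any comparison, and the dentate and thalamic members with the widest range over libraries (Lct and Tnnt1). The other 2, Pcp4 and Tdo2, were not called. They were chosen for an unadjusted p under 0.05 in a comparison and for holding the hexamer AGGTCA. That hexamer is the half-site bound by estrogen receptors and many other nuclear receptors. Each is the 250 bases before the outermost RefSeq start of the gene, 5′ to 3′ on the gene's strand, in the GRCm38.p6 assembly. Capitals mark the hexamer or its reverse complement TGACCT. The stretch for Fibcd1 (chr2:31846006-31846255, minus strand) has a GC content of 71.6%, that for Lct (chr1:128328319-128328568, minus) 42.8% and that for Tnnt1 (chr7:4515976-4516225, minus) 59.2%. Those of Pcp4 (chr16:96467356-96467605, plus) and Tdo2 (chr3:81975729-81975978, minus) have 46.8% and 46.4%.
Fibcd1: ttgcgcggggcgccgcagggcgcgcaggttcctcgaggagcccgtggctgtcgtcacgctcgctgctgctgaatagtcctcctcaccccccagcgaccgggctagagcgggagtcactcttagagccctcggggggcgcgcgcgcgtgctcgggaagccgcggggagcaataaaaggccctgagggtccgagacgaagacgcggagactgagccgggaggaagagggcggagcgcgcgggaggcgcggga
Lct: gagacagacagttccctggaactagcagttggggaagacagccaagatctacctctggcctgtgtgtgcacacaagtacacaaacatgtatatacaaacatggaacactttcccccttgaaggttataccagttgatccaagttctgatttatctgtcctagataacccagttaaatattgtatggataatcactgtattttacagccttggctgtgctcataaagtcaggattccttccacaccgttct
Tnnt1: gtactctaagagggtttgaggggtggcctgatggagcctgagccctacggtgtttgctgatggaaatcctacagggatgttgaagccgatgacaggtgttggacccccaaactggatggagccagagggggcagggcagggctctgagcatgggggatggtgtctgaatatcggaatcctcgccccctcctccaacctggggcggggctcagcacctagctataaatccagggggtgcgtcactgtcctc
Pcp4: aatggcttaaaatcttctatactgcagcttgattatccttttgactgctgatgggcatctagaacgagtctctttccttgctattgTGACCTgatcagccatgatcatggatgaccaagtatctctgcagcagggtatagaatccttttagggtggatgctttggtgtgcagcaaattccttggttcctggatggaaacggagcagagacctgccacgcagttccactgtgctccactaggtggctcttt
Tdo2: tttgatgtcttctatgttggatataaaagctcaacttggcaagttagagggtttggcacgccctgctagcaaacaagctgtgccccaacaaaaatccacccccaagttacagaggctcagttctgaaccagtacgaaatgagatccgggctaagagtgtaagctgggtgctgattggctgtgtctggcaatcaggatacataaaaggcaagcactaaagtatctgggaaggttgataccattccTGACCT

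RefSeq promoters were found for 37 of the 42 members and for 27025 genes in all. AGGTCA, searched on both strands, lay in 2 of the 37 (5.41%), Pcp4 and Tdo2, and in 13.8% of all promoters of this length. CTTTGAT, a motif of the TCF/LEF factors to which Tcf7l2 belongs, lay in 2 members (5.41%), Lmo3 and Nr2f2, and in 3.26% of all promoters. CAGATG, an E-box bound by factors of the NEUROD kind, lay in 5 members (13.5%), namely Dock10, Il16, Iyd, Prox1 and Wfs1, and in 14.5% of all promoters. A match describes the letters of these windows only.

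Reads counted on genes numbered between 19820184 and 23267410 per library, and 1 read was worth between 0.0430 and 0.0505 CPM. Libraries of 1 group differed by more than sampling noise (chi-square per degree of freedom 3.40 to 14.1). Among the 10 libraries, replicate 3 of the vehicle-treated Het-Met group held the highest value of 16 members (38.1%), against 10.2% of all genes tested. Replicate 3 of the E2-treated Het-Met group held the highest value of 10 members (23.8%) and the lowest of 9 (21.4%), against 14.1% and 8.89% of all genes. The ranges over libraries, the tests of Fibcd1 and Gpr101 and some counts of members are therefore also given without both libraries. So is the correlation of Nr2f2 and Cyp26b1. Most other results, among them the tests of Tdo2 and the medians of fold changes by region, include both. The labels and methods name a single sequencing lane and no batch.

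Per kilobase of annotated exon, the members stood between 0.294 and 120.2 CPM per kb in the mean of 10 libraries. Pcp4, which binds calmodulin and marks CA2, was the highest, although 23.7% of its exonic bases overlap another gene on the same strand. It was followed by Neurod6 (111 CPM per kb), a transcription factor of excitatory neurons, and by the CA1 markers Mpped1 (69.9), a phosphoesterase, and Wfs1 (47.5), a protein of the endoplasmic reticulum. The leading dentate marker was C1ql2 (43.9 CPM per kb), a secreted protein of granule cell synapses, and Prox1, the homeodomain factor of granule cell identity, stood at 5.83. Thalamic members were low per length, from 0.700 for Tnnt1 to 3.90 for Rora, an orphan nuclear receptor. The lowest member was Zbtb20, a zinc finger factor of hippocampal pyramidal neurons, whose annotated exons cover 30730 bases. Defining markers of dentate, CA1, CA2 and CA3 were thus detected in every library. No dorsal hippocampus was analysed here, so the ventral position of the tissue cannot be checked against it.

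The dentate members moved together most in 1 library. Lct, the gene of lactase, which granule cells transcribe, had 19.7 and 27.8 CPM in vehicle-treated WT, 23.7 and 20.5 in E2-treated WT, 15.2, 15.3 and 54.8 in vehicle-treated Het-Met and 22.3, 28.6 and 22.7 in E2-treated Het-Met mice. Replicate 3 of the vehicle-treated Het-Met group was the highest, and the other 2 libraries of that group were the lowest. Dsp, the desmosomal plaque protein desmoplakin, had 32.7 and 39.6 CPM in vehicle-treated WT, 39.3 and 39.9 in E2-treated WT, 30.03, 42.7 and 64.2 in vehicle-treated Het-Met and 37.9, 47.5 and 20.7 in E2-treated Het-Met mice. Its highest and lowest values lay in the same genotype, in replicate 3 of the vehicle-treated and replicate 3 of the E2-treated Het-Met group.

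Prox1 had 51.4 and 52.8 CPM in vehicle-treated WT, 53.3 and 56.9 in E2-treated WT, 32.7, 44.6 and 58.6 in vehicle-treated Het-Met and 47.4, 54.3 and 37.6 in E2-treated Het-Met mice. The 4 WT libraries lay between 51.4 and 56.9 CPM, and the Het-Met libraries between 32.7 and 58.6 CPM. C1ql2 behaved differently from these, with 75.1 and 69.7 CPM in vehicle-treated WT, 78.0 and 81.6 in E2-treated WT, 93.6, 81.9 and 121 in vehicle-treated Het-Met and 79.2, 89.3 and 109.5 in E2-treated Het-Met mice. All 3 vehicle-treated Het-Met libraries lay above both vehicle-treated WT libraries. Tdo2, which opens the tryptophan ring, ranged from 3.13 to 9.74 CPM, and its extremes fell in the same 2 libraries as those of Dsp.

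A list level was taken as the mean, over the genes of a list, of each gene's log2(CPM + 0.5) minus its mean over 10 libraries. The dentate level was 0.46 in replicate 3 of the vehicle-treated Het-Met group, against -0.07 and 0.00 in vehicle-treated WT and 0.02 and 0.02 in E2-treated WT. In the other Het-Met libraries it was -0.18 and -0.14 with vehicle and -0.02, 0.10 and -0.19 with E2. Of the 10 dentate members, 8 were highest in that 1 library. A second list of 6 dentate markers that are not members had its highest level, 0.36, in the same library, and between -0.15 and 0.08 in the rest. Group means of the dentate level lay within 0.08 of each other, less than the within-group SD of 0.22.

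**Figure D1:**
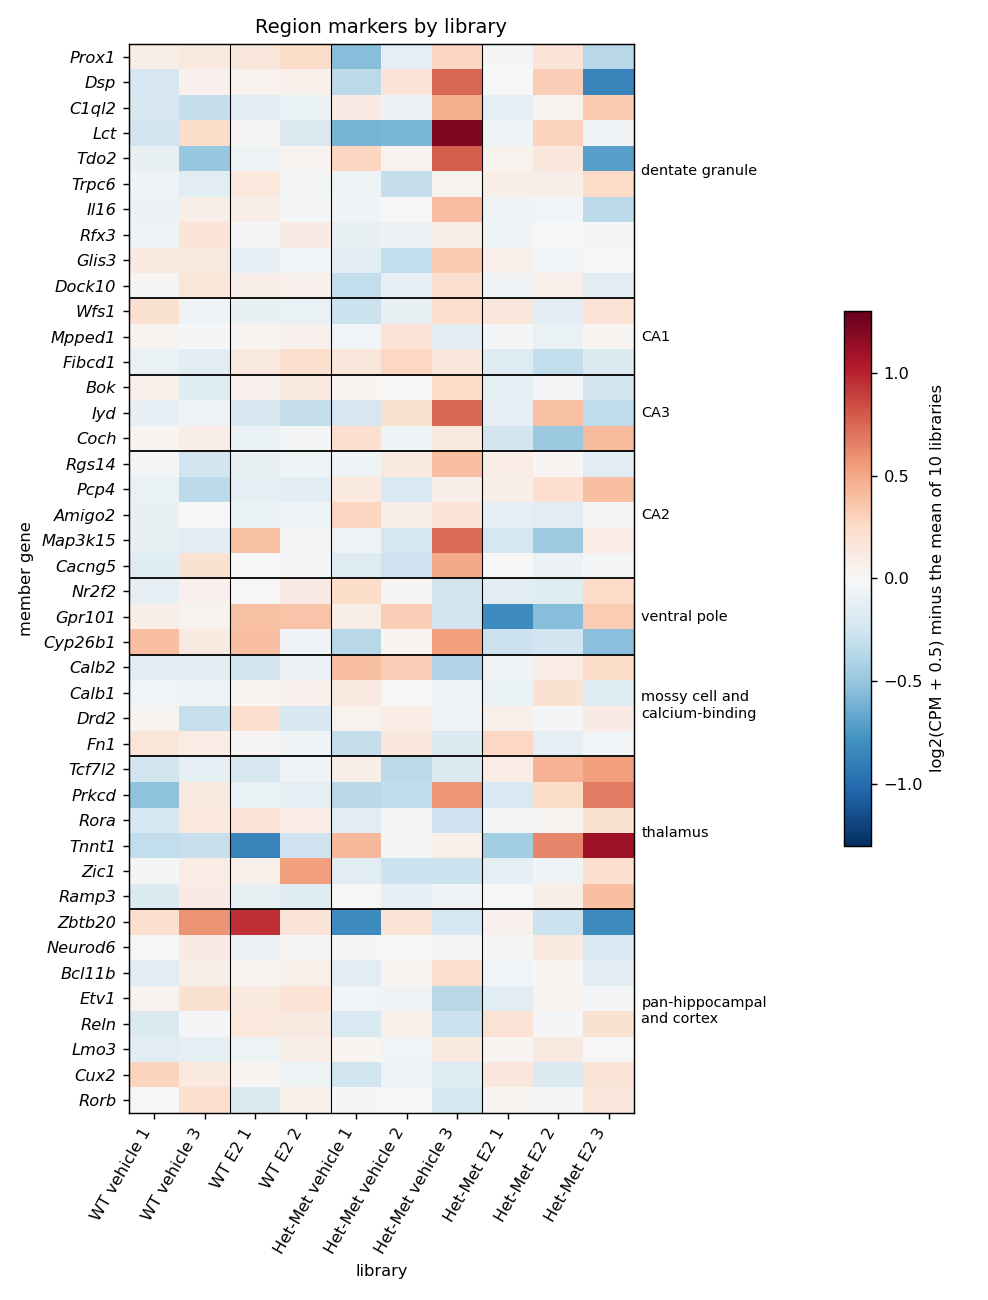
Each row is a member gene, ordered by region, and each column a library; colour gives log2(CPM + 0.5) minus the mean of the 10 libraries for that gene. The column of vehicle-treated Het-Met replicate 3 is red for most dentate, CA3 and CA2 members and holds the highest value of 8 of 10 dentate members, and that of E2-treated Het-Met replicate 3 is red for the thalamic members, of which 5 of 6 are highest there.

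The CA3 and CA2 levels were also highest in that vehicle-treated Het-Met library. Iyd, an iodotyrosine deiodinase used as a CA3 marker, had 2.36 and 2.48 CPM in vehicle-treated WT, 2.15 and 1.98 in E2-treated WT, 2.13, 3.03 and 4.64 in vehicle-treated Het-Met and 2.35, 3.504 and 1.94 in E2-treated Het-Met mice. Bok, of the BCL2 family, ranged from 22.4 to 32.0 CPM, and Coch, which encodes cochlin, from 5.58 to 10.7. Coch was highest in replicate 3 of the E2-treated Het-Met group and had 8.77 CPM in replicate 3 of the vehicle-treated group. The CA3 level was 0.38 in replicate 3 of the vehicle-treated Het-Met group and between -0.15 and 0.05 in the other 9 libraries. A second list, of 7 CA1 and CA3 genes that are not members, went the other way. Its lowest level, -0.12, lay in that same library, and its highest, 0.12, in replicate 1 of that group.

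Among the CA2 members, Rgs14, a regulator of G protein signalling that restrains plasticity in CA2, ranged from 81.3 to 127 CPM. Cacng5, an AMPA receptor accessory subunit, ranged from 7.52 to 13.1 CPM. Map3k15, a kinase gene, ranged from 1.24 to 3.52 CPM, and 13.9% of its exonic bases overlap a gene on the other strand. The highest value of these 3 lay in replicate 3 of the vehicle-treated Het-Met group. Amigo2, an adhesion protein, and Pcp4 did not share that: Amigo2 was highest in replicate 1 of that group (37.7 CPM) and Pcp4 in replicate 3 of the E2-treated Het-Met group (160.0 CPM). The CA2 level was 0.38 in the first of these libraries and at most 0.06 elsewhere.

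CA1 varied least among the subfields. Mpped1 lay between 271 and 336 CPM and Wfs1 between 147 and 209 CPM, and the CA1 level spanned from -0.18 to 0.11. The level of the mossy cell and calcium-binding members, which did not move together, lay between -0.16 and 0.14. Calb2, the calretinin of mossy cells, had 55.6 and 55.9 CPM in vehicle-treated WT, 51.6 and 58.3 in E2-treated WT, 80.9, 76.9 and 46.9 in vehicle-treated Het-Met and 59.7, 65.9 and 72.7 in E2-treated Het-Met mice. Its lowest value lay in the library with the highest dentate level. Calb1, the calbindin of granule and CA1 cells, kept within 123 to 158 CPM, Fn1, fibronectin, within 88.1 to 131, and Drd2, a dopamine receptor of mossy cells, within 1.98 to 3.05.

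The 3 ventral pole members did not move together. Gpr101, an orphan G protein-coupled receptor, had 20.3 and 19.7 CPM in vehicle-treated WT, 24.9 and 24.7 in E2-treated WT, 20.3, 23.9 and 15.9 in vehicle-treated Het-Met and 10.6, 12.9 and 24.00 in E2-treated Het-Met mice. Replicates 1 and 2 of the E2-treated Het-Met group were the lowest of all libraries, and replicate 3 lay among the WT values. Nr2f2, the nuclear receptor COUP-TFII, ranged from 52.0 to 73.5 CPM and was lowest in replicate 3 of the vehicle-treated and highest in replicate 3 of the E2-treated Het-Met group. Cyp26b1, which degrades retinoic acid, did the reverse in the same libraries, with 9.97 and 4.46 CPM as its highest and lowest values. The ventral pole level was -0.41, -0.32 and 0.01 in E2-treated Het-Met mice and between -0.01 and 0.26 in the other 7 libraries.

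The thalamic level was highest in E2-treated Het-Met mice, in 2 of the 3 libraries. Prkcd, protein kinase C delta, had 12.9 and 20.4 CPM in vehicle-treated WT, 17.6 and 17.2 in E2-treated WT, 14.5, 14.8 and 28.1 in vehicle-treated Het-Met and 16.2, 22.3 and 30.2 in E2-treated Het-Met mice. It was highest in replicate 3 of the E2-treated Het-Met group and next in replicate 3 of the vehicle-treated group. Tcf7l2, a Wnt pathway transcription factor of thalamic neurons, had 7.26 and 7.88 CPM in vehicle-treated WT, 7.45 and 8.42 in E2-treated WT, 9.16, 6.71 and 7.56 in vehicle-treated Het-Met and 9.35, 12.0 and 12.8 in E2-treated Het-Met mice. All 3 E2-treated Het-Met values lay above the other 7.

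Tnnt1, slow skeletal troponin T and a thalamic marker in brain, had 1.02 and 1.04 CPM in vehicle-treated WT, 0.538 and 1.07 in E2-treated WT, 2.04, 1.36 and 1.48 in vehicle-treated Het-Met and 0.881, 2.44 and 3.56 in E2-treated Het-Met mice. It rested on 12 to 75 reads per library, and the exact Poisson 95% intervals, which cover counting error only, were 0.278 to 0.941 CPM at the lowest and 2.80 to 4.46 CPM at the highest library. Ramp3, a receptor accessory protein, and Rora were also highest in replicate 3 of the E2-treated Het-Met group, at 5.17 and 58.2 CPM. Zic1, a zinc finger factor, was the exception, with its highest value (21.6 CPM) in replicate 2 of E2-treated WT. The thalamic level was -0.12, 0.23 and 0.52 in E2-treated Het-Met mice and at most 0.01 elsewhere.

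A second thalamic list of 9 detected genes that are not members had levels of -0.03, 0.25 and 0.41 in the E2-treated Het-Met libraries and at most 0.04 elsewhere. The cortical list of 8 other genes was also highest in replicate 3 of that group, at 0.42, and between -0.27 and 0.12 in the other 9 libraries. In that library, high in both neighbouring regions, the dentate lists differed: the members had their lowest level, -0.19, and the 6 other dentate genes stood at 0.08, below the vehicle-treated Het-Met replicate 3 alone. Of the dentate members, Trpc6 was highest there and C1ql2 next to its highest. The part of tissue taken at dissection in these differences was not tested.

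**Figure D2:**
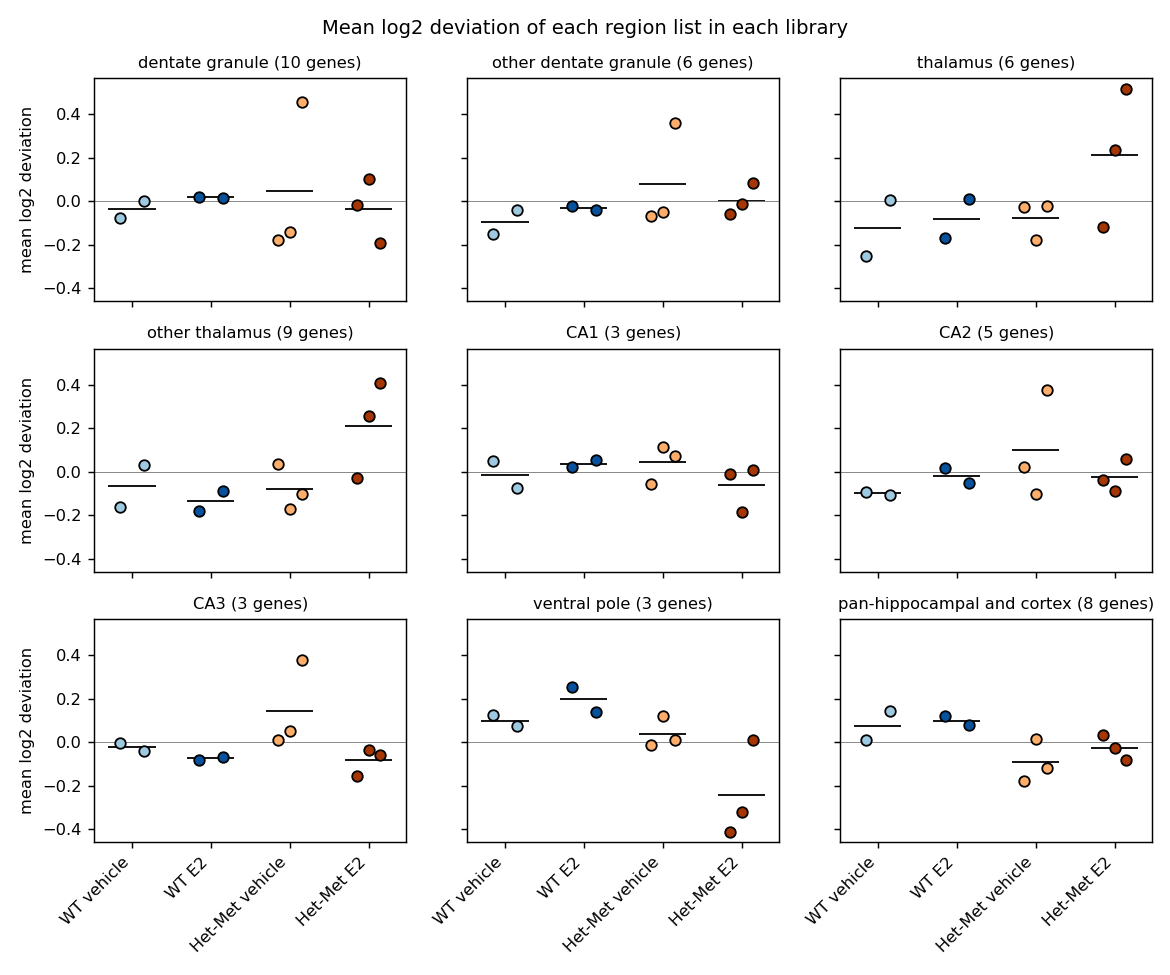
Each panel shows the mean log2 deviation of a region list in each library (points) with the group mean (line), on 1 shared axis. A single vehicle-treated Het-Met library stands at 0.46 for the dentate members and at 0.36 for 6 other dentate genes, and 2 E2-treated Het-Met libraries stand above the rest for both thalamic lists.

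Among the pan-hippocampal and cortical members, Zbtb20 ranged most widely. On the log2(CPM + 0.5) scale their median range was 1.37-fold, against 1.34-fold for all genes. Neurod6 lay between 209 and 261 CPM, Bcl11b (CTIP2) between 152 and 193, and Lmo3, a LIM-only transcription cofactor, between 98.7 and 118. Of the cortical layer markers, Rorb lay between 24.3 and 33.2 CPM, Etv1 between 56.8 and 84.1, and Cux2 between 29.5 and 43.3. Reln, the secreted protein reelin, ranged from 76.4 to 106 CPM. Zbtb20 had 9.81 and 12.8 CPM in vehicle-treated WT, 16.7 and 9.54 in E2-treated WT, 4.55, 9.59 and 7.10 in vehicle-treated Het-Met and 8.76, 6.87 and 4.55 in E2-treated Het-Met mice, and its lowest values lay in replicate 1 of the vehicle-treated and replicate 3 of the E2-treated Het-Met group.

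**Figure D3:**
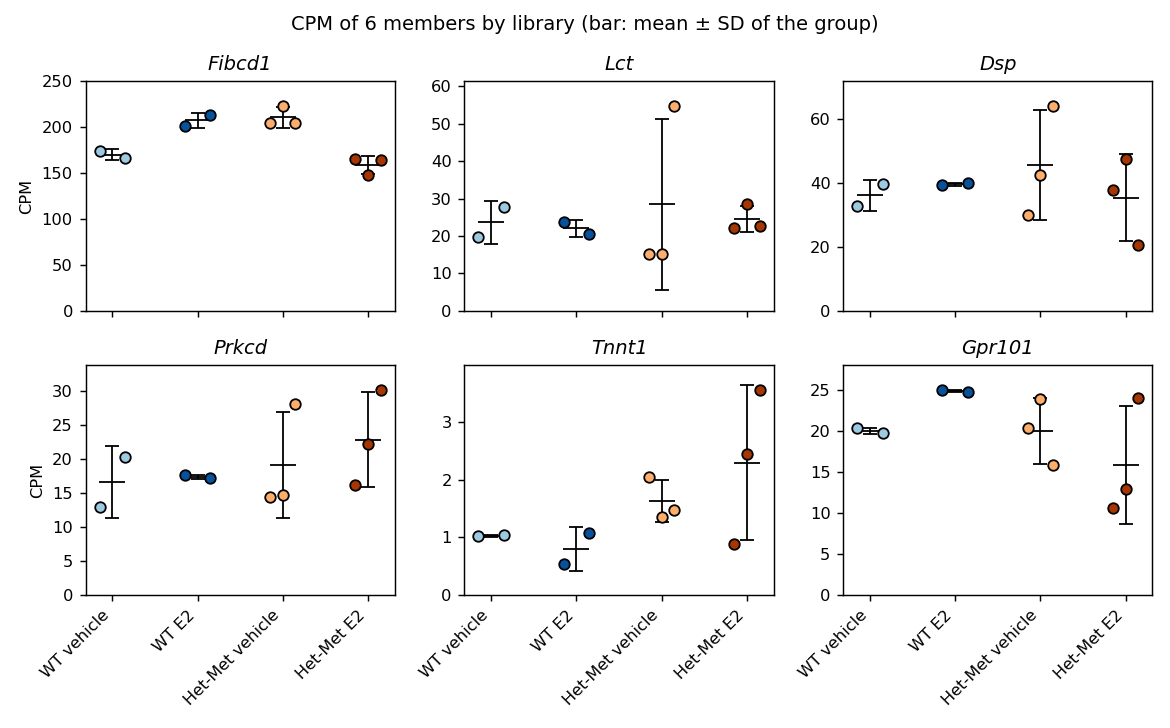
CPM of 6 members in the 10 libraries, with points for libraries and bars for the group mean ± SD, each panel from 0. Fibcd1 forms 4 tight groups, whereas Lct, Dsp, Prkcd, Tnnt1 and Gpr101 have Het-Met groups whose libraries lie far apart.

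The spread of the members within groups was larger than that of most genes. The within-group SD of log2(CPM + 0.5), with 6 residual degrees of freedom, had a median of 0.18 over the 42 members and of 0.12 over all genes tested, and 19 of the 42 lay in the top 25% of all genes. It was 0.63 for Lct (percentile 99.8), 0.51 for Tnnt1, 0.48 for Dsp, 0.46 for Zbtb20 and 0.44 for Prkcd. By region the median was 0.31 for the ventral pole, 0.28 for CA3, 0.21 for dentate, 0.18 for thalamus, 0.17 for mossy and calcium-binding, 0.16 for CA2, 0.13 for pan-hippocampal and cortex and 0.10 for CA1. Fibcd1 (0.07) and Amigo2 (0.07) were among the steadiest (percentiles 15.6 and 15.5).

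The median range of a member over all 10 libraries was 1.53-fold, against 1.34-fold for all genes, on the log2(CPM + 0.5) scale. Without replicate 3 of both Het-Met groups it was 1.39-fold against 1.31-fold. For the dentate members alone it went from 1.70-fold to 1.38-fold, and for the thalamic members from 1.80-fold to 1.72-fold. Within the 4 WT libraries the median member ranged 1.21-fold and the median gene 1.18-fold, and within the 6 Het-Met libraries 1.48-fold and 1.26-fold. A range widens with the number of libraries, so those of 4, 6 and 10 libraries are not like for like. Replicate 3 of both Het-Met groups was left out for holding many member extremes, which favours a narrower range of members in the rest.

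**Figure D4:**
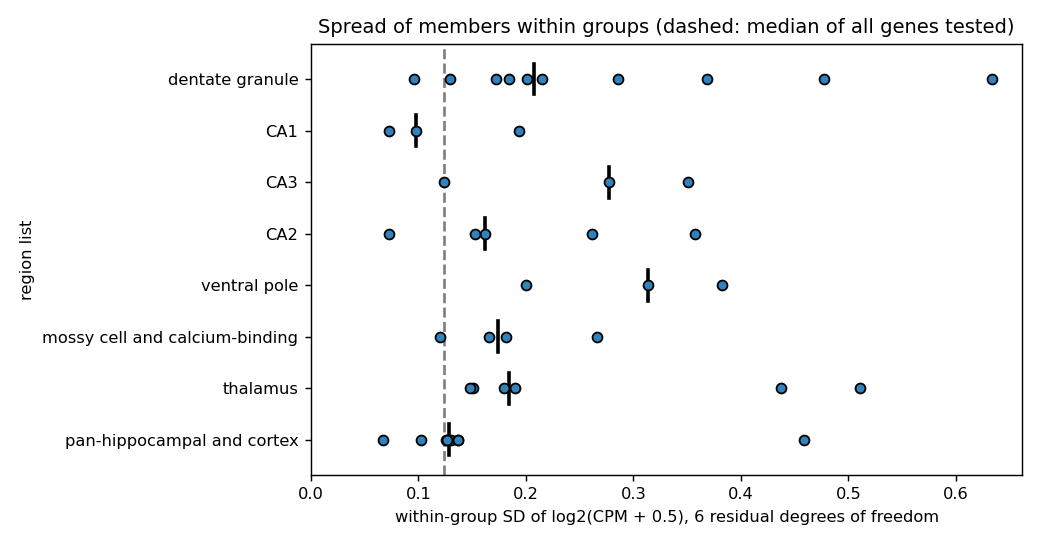
Within-group SD of log2(CPM + 0.5) of each member (points) by region list, with the list median (black bar) and the median of all genes tested (dashed line, 0.12). Every ventral pole member and most dentate members lie to the right of the dashed line.

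Differences between groups were tested with limma across all 15081 genes, and a gene was called at a Benjamini-Hochberg adjusted p under 0.05 with a fold change above 1.3. E2 against vehicle in WT mice called 0 members (0.0133% of all genes), and 1 member reached an unadjusted p under 0.05, against 4.04% of all genes. The same comparison in Het-Met mice called 0 members (0% of all genes), with 10 of 42 (23.8%) at an unadjusted p under 0.05, 4 higher and 6 lower with E2, against 5.45% of all genes. Het-Met against WT called 0 members under vehicle (0.00663% of all genes), with 9 (21.4%) at an unadjusted p under 0.05 against 10.7%. Under E2 it called 0 members (0.0265% of all genes), with 7 (16.7%) against 11.7%. The genotype-by-E2 interaction, the E2 effect in Het-Met minus that in WT, called 1 member (0.0729% of all genes), and 4 (9.52%) reached an unadjusted p under 0.05 against 5.42%. The share of members at an unadjusted p under 0.05 was thus furthest from the share of all genes for E2 in Het-Met mice.

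Fibcd1, a membrane receptor with a fibrinogen-like domain that is enriched in CA1 pyramidal cells, was the member called. The gene lies at chr2:31813290-31846005 on the minus strand (GRCm38). It had 174 and 166 CPM in vehicle-treated WT, 202 and 213 in E2-treated WT, 204, 224 and 204 in vehicle-treated Het-Met and 165, 148 and 164 in E2-treated Het-Met mice. Both E2-treated WT libraries lay above both vehicle-treated WT libraries, all 3 E2-treated Het-Met libraries lay below all 3 vehicle-treated ones, and no libraries overlapped between genotypes under either treatment. The group means were 170.3 ± 5.64 CPM (SD, n = 2), 208 ± 8.25 (n = 2), 211 ± 11.1 (n = 3) and 159 ± 9.45 (n = 3), in that order.

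The E2 effect on Fibcd1 was 0.28 (SE 0.08) on the log2 scale in WT mice (limma, adjusted p = 0.536) and -0.41 (SE 0.06) in Het-Met mice (limma, adjusted p = 0.159). Neither passed the threshold on its own. Their difference, the interaction, was -0.69 (SE 0.10) with a 95% interval of -0.91 to -0.47 (limma, adjusted p = 0.0333), so that the E2 effect was downward in Het-Met relative to WT mice. Between genotypes Fibcd1 differed by 0.31 (SE 0.07) under vehicle (limma, adjusted p = 0.251) and by -0.38 (SE 0.07) under E2 (limma, adjusted p = 0.0814).

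The interaction of Fibcd1 kept its sign in all 21 alternatives, between -0.74 and -0.64, each with an unadjusted p under 0.05. The call held in 9 of them, among them edgeR's quasi-likelihood test (adjusted p = 0.0448) and DESeq2 (adjusted p = 1.05e-05) on recovered reads. It was lost in 8 of the 10 fits that left out 1 library, all but those without replicate 3 of vehicle-treated WT and without replicate 1 of E2-treated Het-Met mice (limma, adjusted p between 0.00709 and 0.225 over the 10). It was also lost without replicate 3 of both Het-Met groups (limma, interaction -0.73, adjusted p = 0.0590).

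Markers of the choroid plexus, the tissue that makes cerebrospinal fluid, moved with Fibcd1 between groups. Their summed level was 344 and 1572 CPM in vehicle-treated WT, 3532 and 2649 in E2-treated WT, 4026, 2074 and 2664 in vehicle-treated Het-Met and 2205, 769 and 508 in E2-treated Het-Met mice. All 8 had a lower E2 effect in Het-Met than in WT mice, with a median interaction of -2.91 against 0.01 over all genes. Each of the 8 had an unadjusted p under 0.05 in the interaction (limma), against 5.42% of all genes, and 0 were called. Ttr, transthyretin, the most abundant of them, had 108 and 960.1 CPM in vehicle-treated WT and 2205 and 1687 in E2-treated WT. Its values were 3055, 1316 and 1734 CPM in vehicle-treated Het-Met and 1369.9, 362 and 204 in E2-treated Het-Met mice. In the same order of libraries, Fibcd1 had 174 and 166 CPM in vehicle-treated WT and 202 and 213 in E2-treated WT. It had 204, 224 and 204 CPM in vehicle-treated Het-Met and 165, 148 and 164 in E2-treated Het-Met mice. The cause of this shared movement was not tested. With the choroid plexus level as a covariate, chosen after seeing the data, the interaction of Fibcd1 was -0.74 (limma, unadjusted p under 0.05, adjusted p = 1.00). That fit called 0 of all genes in the interaction.

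The other CA1 members did not pass any test. The interaction was 0.28 (SE 0.18) for Wfs1, with a 95% interval of -0.10 to 0.66, and -0.06 (SE 0.11) for Mpped1, with an interval of -0.30 to 0.19. Over the 3 CA1 members the median interaction was -0.06. A difference between Fibcd1 and the other CA1 members was not tested.

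**Figure D5:**
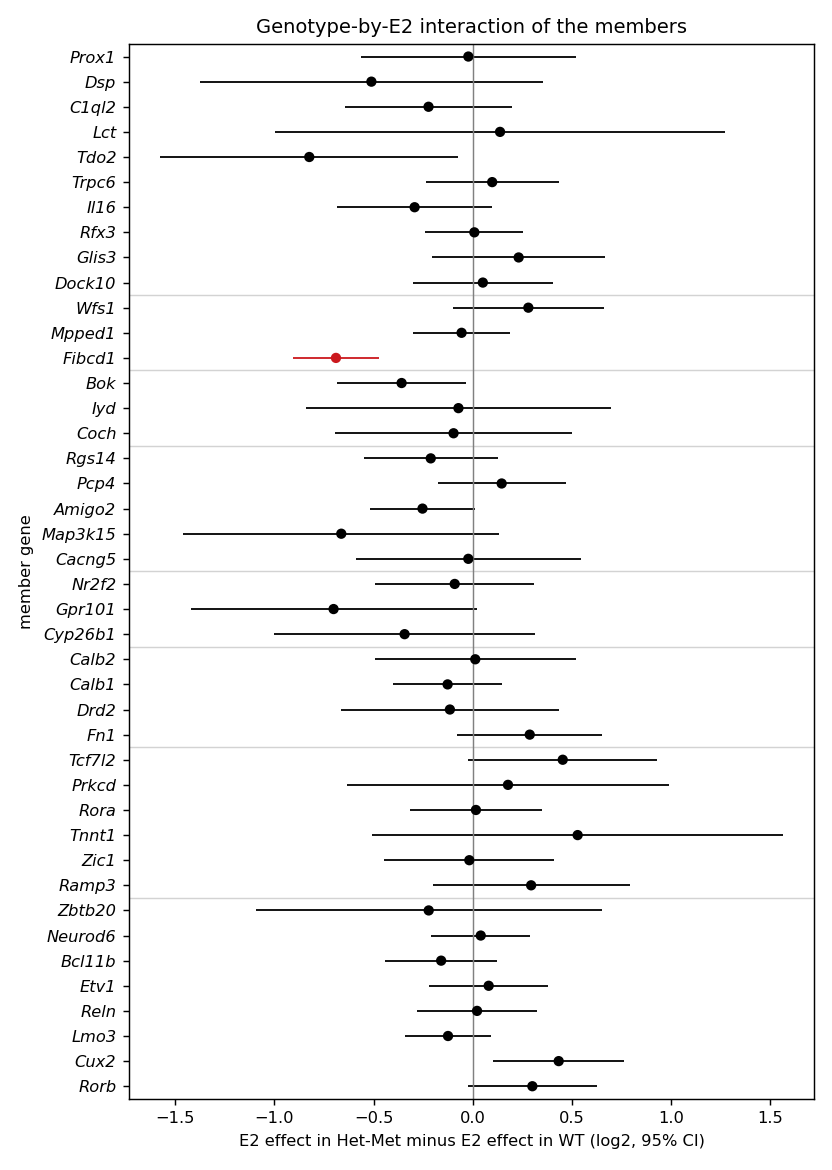
Interaction of each member (E2 effect in Het-Met minus E2 effect in WT, log2 scale, point with 95% confidence interval), ordered by region, with the 1 called gene in red. Fibcd1 stands at -0.69 with a narrow interval, whereas the intervals of Lct, Dsp, Tnnt1 and Map3k15 are wide and include 0.

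After Fibcd1, the E2 comparison in Het-Met mice had Tcf7l2 and Amigo2 as the members with the smallest p, and neither was called. Tcf7l2 was 0.52 (SE 0.14) on the log2 scale (limma, adjusted p = 0.710). Amigo2 had 37.7, 32.8 and 35.3 CPM with vehicle and 28.4, 28.2 and 30.4 with E2, groups that did not overlap, at -0.28 (SE 0.08) (limma, adjusted p = 0.710). Reln was 0.25 (SE 0.09) and Trpc6, a cation channel of granule cells, 0.25 (SE 0.10) (limma, adjusted p = 0.788 and 0.865). Tdo2, Pcp4, Bok, Il16 and Cyp26b1 made up the rest of the 10 members at an unadjusted p under 0.05.

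By region in the same comparison, 6 of 6 thalamic members were higher with E2 in Het-Met mice, 1 of them, Tcf7l2, at an unadjusted p under 0.05, with a median of 0.26 against 0.00445 over all genes. The 9 other thalamic genes were also higher, 3 of them at an unadjusted p under 0.05, with a median of 0.24. Slc17a6, the vesicular glutamate transporter VGLUT2, led these with 21.4, 17.8 and 15.8 CPM for vehicle and 25.6, 31.4 and 29.9 for E2 (0.65 (SE 0.11), limma, adjusted p = 0.212). The 8 other cortical genes were higher too, 5 at an unadjusted p under 0.05, with a median of 0.30. All 3 ventral pole and all 3 CA3 members were lower, with medians of -0.40 and -0.22, and 1 of each list had an unadjusted p under 0.05. The 10 dentate members split 6 higher and 4 lower, with a median of 0.02. Of these, 1 higher and 2 lower had an unadjusted p under 0.05. The 5 CA2 members split 1 higher and 4 lower, with a median of -0.15, and 1 in either direction had an unadjusted p under 0.05.

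For Gpr101 the calls depended on which libraries were left out. Between E2-treated groups it was -0.72 (SE 0.24) in Het-Met relative to WT (limma, adjusted p = 0.342). Without replicate 3 of E2-treated Het-Met mice it was -1.06 (limma, adjusted p = 0.0485), and without replicate 3 of both Het-Met groups -1.06 (limma, adjusted p = 0.00695). With E2 against vehicle in Het-Met mice it was -0.40 (SE 0.21) (limma, adjusted p = 0.929), and -0.89 without both of these libraries (limma, adjusted p = 0.0456). The call on Gpr101 thus existed only in these fits.

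Between genotypes under E2, the members with the smallest p after Fibcd1 were Pcp4, Zbtb20 and Tcf7l2, and 0 were called. Pcp4 had 112 and 111 CPM in WT and 129, 142 and 160.0 in Het-Met mice, a difference of 0.36 (SE 0.11) (limma, adjusted p = 0.334). Zbtb20 differed by -0.91 (SE 0.29) and Tcf7l2 by 0.49 (SE 0.16) (limma, adjusted p = 0.341 and 0.342). Tnnt1 differed by 0.99 (SE 0.34) (limma, adjusted p = 0.347), and by 1.43 without replicate 1 of E2-treated Het-Met mice (limma, adjusted p = 0.0374). In this comparison 2 of 6 thalamic and 2 of 3 ventral pole members had an unadjusted p under 0.05, higher and lower in Het-Met mice, respectively, with medians of 0.31 and -0.53 against 0.03 over all genes. No dentate member did, with a median of -0.09.

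Under vehicle, Cux2 was the member with the smallest p after Fibcd1, with 43.3 and 38.5 CPM in WT and 29.5, 33.6 and 31.3 in Het-Met mice (-0.37 (SE 0.11), limma, adjusted p = 0.330). C1ql2 was 0.43 (SE 0.14), Tdo2 0.66 (SE 0.25) and Etv1, an ETS factor of cortical layer 5, -0.27 (SE 0.10) in Het-Met relative to WT (limma, adjusted p = 0.357, 0.416 and 0.411). Rgs14, Amigo2, Lmo3 and Zbtb20 were the other members at an unadjusted p under 0.05. CA2 had 4 of 5 members higher in Het-Met mice, 2 of them at an unadjusted p under 0.05, with a median of 0.22 against 0.02 over all genes, and its highest library was replicate 3 of the vehicle-treated Het-Met group. Among the pan-hippocampal and cortical members 6 of 8 were lower, 3 at an unadjusted p under 0.05, with a median of -0.12.

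With E2 in WT mice, Fibcd1 was the 1 member with an unadjusted p under 0.05, and the median over the 42 members was 0.06 against -0.00261 over all genes. The dentate members had a median of 0.06 and the thalamic members of 0.08. In the interaction, Cux2 (0.43 (SE 0.15)), Bok (-0.36 (SE 0.15)) and Tdo2 (-0.82 (SE 0.35)) had an unadjusted p under 0.05 beside Fibcd1 and were not called (limma, adjusted p = 0.670, 0.836 and 0.838). Each interaction shares its 4 groups with the other comparisons, so these values are not independent of them.

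The levels of 9 pairs of lead markers were correlated over the 10 libraries, and 0 passed after Benjamini-Hochberg adjustment. The pair with the strongest Pearson correlation was Nr2f2 and Cyp26b1 of the ventral pole (Pearson's r = -0.58, permutation p = 0.0816, adjusted p = 0.432; Spearman's rho = -0.56, permutation p = 0.0956, adjusted p = 0.430). Without the 2 libraries farthest from the median of Nr2f2, which were replicate 3 of either Het-Met group, r was -0.17. Leaving out these libraries also narrows the range of Nr2f2, so the fall cannot show that the relation rested on them. With 1 library left out, r lay between -0.72 and -0.42. With values centred within groups r was -0.89 and passed (permutation, adjusted p = 0.00594), the 1 pair of the 9 that did, in a test that does not allow for the centring. For the thalamic pair Tcf7l2 and Prkcd, r was 0.54 (permutation p = 0.105, adjusted p = 0.432) and rho 0.48 (permutation p = 0.165, adjusted p = 0.494). It went to -0.05 without replicates 2 and 3 of E2-treated Het-Met mice. For Prox1 and C1ql2, both of granule cells, r was -0.22 (permutation p = 0.562, adjusted p = 0.562), and rho was -0.05 (permutation p = 0.893, adjusted p = 0.973). It was 0.15 centred within groups and 0.47 without replicate 1 of vehicle-treated and replicate 3 of E2-treated Het-Met mice. For Tcf7l2 and Prox1, r was -0.35 (permutation p = 0.326, adjusted p = 0.545).

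Of the 15081 genes, those whose log2(CPM + 0.5) was most like Prox1 over the 10 libraries were Trhde (Pearson's r = 0.97), Suv420h1 (0.96) and the dentate member Dock10 (0.94). Those most like Tcf7l2 were 2010012O05Rik (0.97), Zfp60 (0.96) and Asap3 (0.93). These are the highest of 15081 correlations over 10 libraries that share their depth and composition, and are given as a description.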

How the data were processed

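The authors trimmed and filtered the 75 bp single-end reads, aligned them to mm10 with TopHat2 (a tool named in the submitters' processing notes), counted them per gene symbol and deposited CPM per library. The name of the deposited table gives featureCounts as the counter, and its version, annotation and strand setting are not given in the sources used here. The methods state 3 replicates per group, and 10 libraries were analysed here. All deposited CPM values (100%) were whole multiples of 1 read within 0.01 reads, so whole reads were recovered for the count tests. Positions, exon lengths and overlaps came from GENCODE vM21 (GRCm38, also called mm10), which held all 42 members, and promoters from RefSeq.

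limma 3.58.1 in R 4.3.3 fitted 4 group means to log2(CPM + 0.5) of the 15081 genes that averaged 0.5 CPM or more (eBayes with trend, prior degrees of freedom 8.90, residual 6, two-sided, adjusted over all genes). Fold changes are on that scale, which understates changes of low genes. Because labels do not say more, p-values measure the spread between these pooled libraries. Correlations used 100000 permutations in scipy 1.17.1, and figures matplotlib 3.10.9. Tests were checked on simulated data.

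Any member could be named with its values. Tests are given for members called and for the up to 5 with the smallest unadjusted p under 0.05 per comparison, and from other lists for up to 2 genes by the same rule and the most abundant choroid plexus, oligodendrocyte and thalamic gene. Among the genes so named, 1 that is no member is not reported here. Tests of Wfs1, Mpped1, Tnnt1 and Gpr101 beyond this were chosen after their values were seen. The members and lists were chosen with earlier results of these data known.

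Alternatives were a pseudocount of 0.1 or 1, a filter at 2 CPM or none, scaling by median of ratios or by quantiles, a replicate block, each library left out, and edgeR 4.0.16 and DESeq2 1.42.0 on recovered reads. The fits without replicate 3 of both Het-Met groups and with the choroid plexus level as a covariate were chosen after seeing the data.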

Additional observations from a re-analysis of the deposited data

Results flagged for a closer look

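Fibcd1 stood out because its E2 effect differed between the genotypes by a test of that difference itself. The interaction was -0.69 on the log2 scale (SE 0.10, limma, adjusted p = 0.0333), with 174 and 166 CPM in vehicle-treated and 202 and 213 in E2-treated WT mice, and 204, 224 and 204 and 165, 148 and 164 in the same treatments of Het-Met mice. Both E2-treated WT libraries lay above both vehicle-treated WT libraries, and all 3 E2-treated Het-Met libraries lay below all 3 vehicle-treated Het-Met libraries. Single libraries, among them replicate 3 of either Het-Met group, were not tested as outliers.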

How the results depend on the processing

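Of 420 recomputed fold changes of the members with the smallest p, none changed sign, 359 kept their side of the threshold and 61 did not. Over all comparisons of the 18 members with an unadjusted p under 0.05 in any of them, 31 of 90 fold changes took both signs over the alternatives. Without the filter on low values, members at an unadjusted p under 0.05 numbered 4 when E2 was given to Het-Met mice, and 4 and 3 for genotype under vehicle and E2, and the interaction called 0. The replicate block gave 4 such members for E2 in WT mice and called 0 in the interaction (Fibcd1 -0.68, adjusted p = 0.0587, limma). Deviations of same-numbered libraries from their group means had r between -0.17 and 0.08 in 12 pairs (0 over 0.1). In a group of 2 libraries such deviations mirror each other. These values therefore cannot decide whether the numbers stand for a pairing. Without replicate 3 of both Het-Met groups the members at an unadjusted p under 0.05 were 3 for E2 in WT and 8 for the interaction. That fit called 1 member for E2 in Het-Met and 1 between genotypes under E2 (Gpr101 in both) and 0 in the interaction. With the choroid plexus covariate such members numbered 2 for E2 in WT, 6 for E2 in Het-Met, 2 for genotype under E2 and 2 for the interaction, which called 0. DESeq2 called 1 member, Fibcd1, for E2 in Het-Met mice and 1, also Fibcd1, for genotype under E2. With 1 library left out, members at an unadjusted p under 0.05 ranged from 1 to 3 for E2 in WT, 5 to 13 for E2 in Het-Met, 3 to 12 and 4 to 9 between genotypes under vehicle and E2, and 2 to 7 for the interaction. Calls ranged from 0 to 1 for genotype under E2 and from 0 to 1 for the interaction. Over all genes the interaction called 11, and between 0 and 71 with a library left out. The correlation of Nr2f2 and Cyp26b1 was -0.89 with values centred within groups (permutation, adjusted p = 0.00594). So centred, the sign turned for Prox1 and C1ql2 (0.15), Wfs1 and Fibcd1 (0.39), Rgs14 and Amigo2 (-0.55) and Cux2 and Rorb (-0.000482). With 1 library left out, r ranged from -0.68 to 0.00692 for Prox1 and C1ql2 and from -0.11 to 0.55 for Rgs14 and Amigo2. The causes were not tested. Groups of 2 and 3 libraries and pooled animals limit all tests, and 1 library left out could leave a single library in a WT group, which was then assumed to vary like the others.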

Other observations

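Interneuron markers had levels between -0.22 and 0.08, and all 6 of them, among them the GABA-synthesizing enzymes Gad1 and Gad2, were lowest in replicate 3 of the vehicle-treated Het-Met group, the library with the highest dentate level. Oligodendrocyte markers were highest in replicate 2 of E2-treated Het-Met (0.20) and replicate 1 of vehicle-treated WT mice (0.19), and Mbp, myelin basic protein, the most abundant, had 2939 and 2174 CPM in vehicle-treated WT, 2279 and 2284 in E2-treated WT, 2290.0, 2183 and 2798 in vehicle-treated Het-Met and 2298, 2752 and 2125 in E2-treated Het-Met mice. Striatal markers ranged from -0.15 to 0.24.

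Slc17a6 had an interaction of 1.02 (SE 0.18) (limma, adjusted p = 0.0522), with 28.4 and 32.5 CPM in vehicle-treated WT, 24.7 and 22.3 in E2-treated WT, 21.4, 17.8 and 15.8 in vehicle-treated Het-Met and 25.6, 31.4 and 29.9 in E2-treated Het-Met mice. Cacna1g, a T-type calcium channel and the most abundant thalamic gene outside the members, had 133 and 116 CPM in vehicle-treated WT, 111 and 101 in E2-treated WT, 110.5, 119 and 111 in vehicle-treated Het-Met and 131, 103 and 123 in E2-treated Het-Met mice.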
